A study of Mus musculus with 2 samples.

Results

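The T-box genes described here were Tbx1, Tbx2, Tbx3, Tbx4, Tbx5, Tbx15, Tbx18, Tbx20 and Tbx22. They were chosen by name, and they were 9 of the 24323 named genes on the arrays. RNA from wild-type mice carrying no stated allele or treatment was compared between 2 tissues at postnatal day 0, with 1 array of tooth and 1 array of skin on the same slide. In the methods of the study the tissue was tooth germ and the age 1 day more, and the age here is that of the labels. The labels state neither the body site of the skin, nor the type of tooth, nor the number of animals behind each RNA. The text of the study describes an incisor germ with both its epithelium and its mesenchyme, and skin with hair follicles. With 1 array per tissue no test was possible, so every value below is a description of these arrays, and the errors given are the extraction software's own estimate for a spot and not a spread between animals. In whole tissue, fewer cells of a type and less RNA per cell cannot be told apart.

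T-box proteins are transcription factors that bind DNA through a shared domain, and most of them act in a restricted region of the embryo. Tbx1 marks the dental epithelium and is required for enamel formation in the incisor, and its human counterpart lies in the interval lost in the 22q11 deletion syndrome. Tbx2 and Tbx3 are closely related repressors of the cell cycle inhibitors. Tbx4 and Tbx5 act in the hindlimb and the forelimb, Tbx20 acts in the heart, and Tbx22 is best known from X-linked cleft palate. Tbx15 sets the dorsoventral pigment boundary of the skin, and Tbx18 is known from the dermal papilla, pericytes and the somites.

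Each gene was read by 60-base probes, 1 spot per probe, and the 9 genes had 12 probes in all. The longest stretch that any 2 of these probes shared was 8 bases. The last 30 bases of the 7 probes on which the results turn are shown 5′ to 3′, as part of the 60-base sequence that each spot carries. Capitals mark the polyadenylation hexamer AATAAA, or, in Tbx22, the part in which A and G alternate.
Tbx1, chr16:18581807-18581866, minus strand: ccgatttcataaacggttttgcctcttttg
Tbx2, chr11:85655391-85655450, plus strand: aaatAATAAAaacgctatcatgcgatttga
Tbx3, chr5:120134511-120134570, plus strand: agggacttggttcaaacgaccatgaaaggc
Tbx15, chr3:99157901-99157960, plus strand: aaatggtgtggagactcgaatgataccaag
Tbx18, chr9:87599514-87599573, minus strand: tctgaggtatctatagcAATAAAggcttag
Tbx22, bright probe, chrX:104881102-104881161, plus strand: aaggaaagagaaAGAGAGAGAGAGAGAGAG
Tbx22, second probe, chrX:104884006-104884065, plus strand: acaactttattggctcacatttaactgctt
The positions are those of the whole probes in mm9, per the file headers, and whether a probe lies in coding sequence or a UTR was not analysed here. The hexamer was in 2 of the 12 probes, against 13.4% of the 33182 probes with a gene name.

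The 2 arrays separated the tissues as labelled. All 6 enamel epithelium markers exceeded background clearly in tooth, and 5 of them, the enamel matrix genes Amelx, Ambn and Enam among them, did not in skin. The 5 epidermis markers were all at least 2-fold higher on the skin array, led by Flg, the filaggrin gene, at 46.3 against 227351. Each array was scaled to the 75th percentile of its processed signal, 428 for tooth and 276 for skin. The extraction software calls each probe well above background or not, and the lowest signal with that call was 18.7 on tooth and 20.8 on skin. Of the negative-control spots, 0 of 308 had the call on tooth, which allows a share of up to 0.974%, and 1 of 308 had it on skin.

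Among the 9 genes, Tbx2 and Tbx3 were far higher on the tooth array, Tbx15 was far higher on the skin array, and Tbx1 was bright on both arrays with a difference under 2-fold. Tbx18 was well above background on the skin array alone. Tbx22 was higher on the skin array by the probe that ends in the repeat, and its second probe did not have the well-above-background call in either tissue. Neither did any probe of Tbx4, Tbx5 or Tbx20. Thus 6 of the 9 genes entered the comparison and 5 of them were measured on both arrays.

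**Figure D1:**
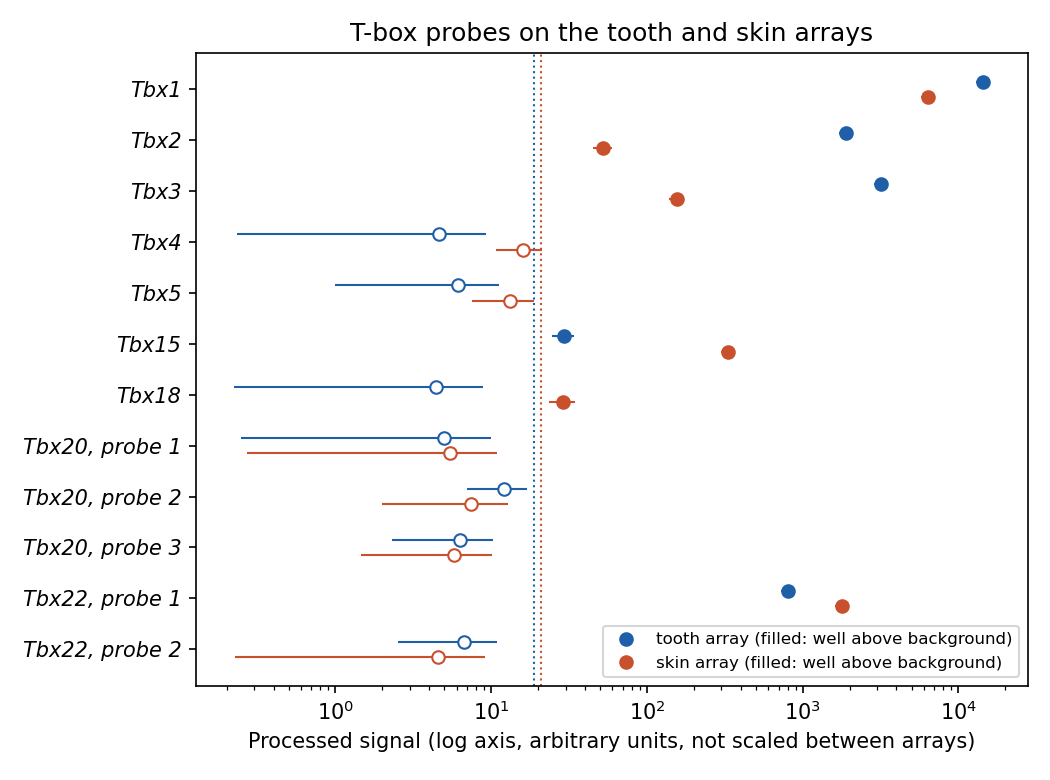
Processed signal (log axis) of the 12 T-box probes on the tooth array (blue) and the skin array (orange), 1 spot each, with the software's error of the spot (shortened at the low end where it would reach 0). Filled points were well above background and the dotted lines mark the lowest signal with that call. The 3 Tbx20 probes, the Tbx4 and Tbx5 probes and the second Tbx22 probe are open on both arrays, and levels of different probes are not comparable.

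Tbx1 had a processed signal of 14440 ± 1444 in tooth and 6415 ± 641 in skin. After scaling, skin minus tooth was -0.54 ± 0.20 (log2), which is 1.45-fold higher on tooth. The gene was thus well above background on both arrays and stayed within 2-fold. Under spike-in scaling the difference was -1.16, past 2-fold in the same direction.

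Tbx2 had a signal of 1904 ± 190 on tooth and 52.5 ± 7.32 on skin. It was 23.4-fold higher on the tooth array, a difference of -4.55 ± 0.25 (log2). Of the 15271 genes measured on both arrays, it ranked 53 from the tooth end. Tbx3 had a signal of 3173 ± 317 on tooth and 155 ± 16.4 on skin. It was 13.2-fold higher on tooth, at -3.72 ± 0.21 (log2), and ranked 116. Both related repressors therefore lay toward the tooth end of the distribution, and both were still well above background on the skin array.

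Tbx15 had a signal of 29.3 ± 4.79 on tooth and 331 ± 33.3 on skin. It was 17.5-fold higher on the skin array, at 4.13 ± 0.28 (log2), and ranked 218 from the skin end. The tooth signal lay just above the lowest one called well above background. With normexp background correction the difference was 2.70, and it kept the same direction.

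Tbx18 had a signal of 4.44 ± 4.47 on tooth, a value that the software had set in place of one too dim to measure, and 29.0 ± 5.70 on skin. Its fold is given as a bound only, at least 2.40-fold higher on skin, taken against the lowest tooth signal well above background. The skin signal was itself close to that limit, and with normexp correction the difference was 0.90, under 2-fold.

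Tbx22 had 2 probes 2904 bases apart under the same accession. The bright probe had a signal of 802 ± 80.3 on tooth and 1779 ± 178 on skin, which is 3.44-fold higher on skin, at 1.78 ± 0.20 (log2). The second probe had a signal of 6.70 ± 4.19 on tooth and 4.55 ± 4.57 on skin and lacked the call in both tissues. The probes of this gene therefore disagreed over whether it was well above background. The bright probe ended in 18 bases in which A and G alternate, as shown above.

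A comparison with other probes of that kind was chosen after the Tbx22 values were seen. On the arrays, 7 other probes held an alternating run of A and G of at least 18 bases, and they belonged to 7 different names, Shc4 and Cabp5 among them. All 7 were well above background on both arrays. All 7 were higher on the skin array, from 0.71 to 1.77 with a median of 1.27 (log2), and 5 of the 7 passed 2-fold. Of the 41 probes with a run of 10 to 13 bases, 97.6% were well above background on tooth and 95.1% on skin, with a median difference of 1.15 over the 39 measured on both. Among the 53469 probes with a run of at most 5 bases, these shares were 56.8% and 52.5% and the median was 0.06. The 2151 probes with a run of 6 to 9 bases were close to the latter, at 55.1% and 51.7% with a median of 0.13. The part of the repeat in the Tbx22 signal was not tested.

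**Figure D2:**
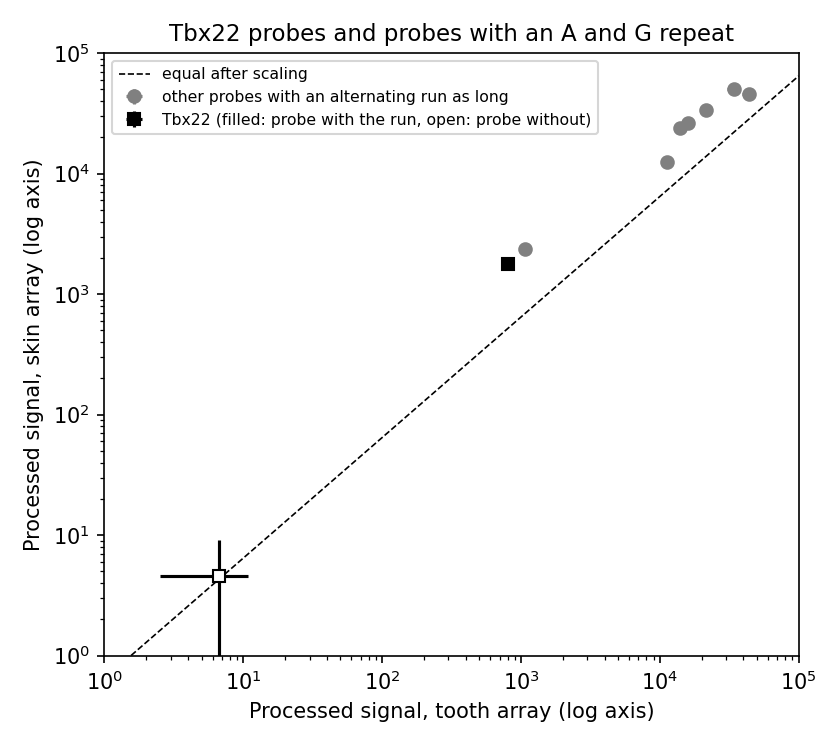
Processed signal on the tooth array against the skin array (both log axes) for the 2 Tbx22 probes (squares) and the 7 other probes with an alternating A and G run of at least 18 bases (grey), with the software's error of the spot, shortened where it would reach 0. The dashed line marks equal values after scaling. The bright Tbx22 probe and all 7 other probes lie above the line, and the open square, the second Tbx22 probe, lies near background.

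Tbx4 and Tbx5, the limb genes, had signals of 4.65 ± 4.66 and 6.10 ± 5.11 on tooth and of 15.9 ± 5.25 and 13.2 ± 5.72 on skin. Neither had the call in either tissue, and no fold is given. The 3 probes of Tbx20, the heart gene, lay between 4.94 and 12 on tooth and between 5.42 and 7.42 on skin, and none was well above background. By the more lenient call of the software, signal significantly above background, Tbx4 passed on skin, and Tbx5 and 2 of the 3 Tbx20 probes passed on both arrays. Their signals were thus too close to background for a fold, which does not show that the genes were absent.

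Over all 17409 named genes above background on 1 array or both, 14.2% were at least 2-fold higher on skin and 15.5% at least 2-fold higher on tooth. The corresponding counts among the T-box genes were 3 of 6 (Tbx15, Tbx18 and Tbx22) and 2 of 6 (Tbx2 and Tbx3). The Tbx18 call used the surrogate that the software had set for its tooth value, and 2 of 5 were higher on skin when Tbx22 was left out, as when only the genes measured on both arrays were kept. The median difference of the 6 was 0.62 (log2), against -0.04 over all genes tested. This median stood between 2 groups of opposite direction and described no single gene, since without Tbx22 it was -0.54. Scaling on the spike-in RNAs moved the median of all genes by -0.62 and scaling on the array median moved it by -0.25. The counts over all genes were 2466 higher on skin and 2691 higher on tooth as scaled here, 1573 and 5639 with the spike-ins, and 2020 and 3500 with the array median.

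**Figure D3:**
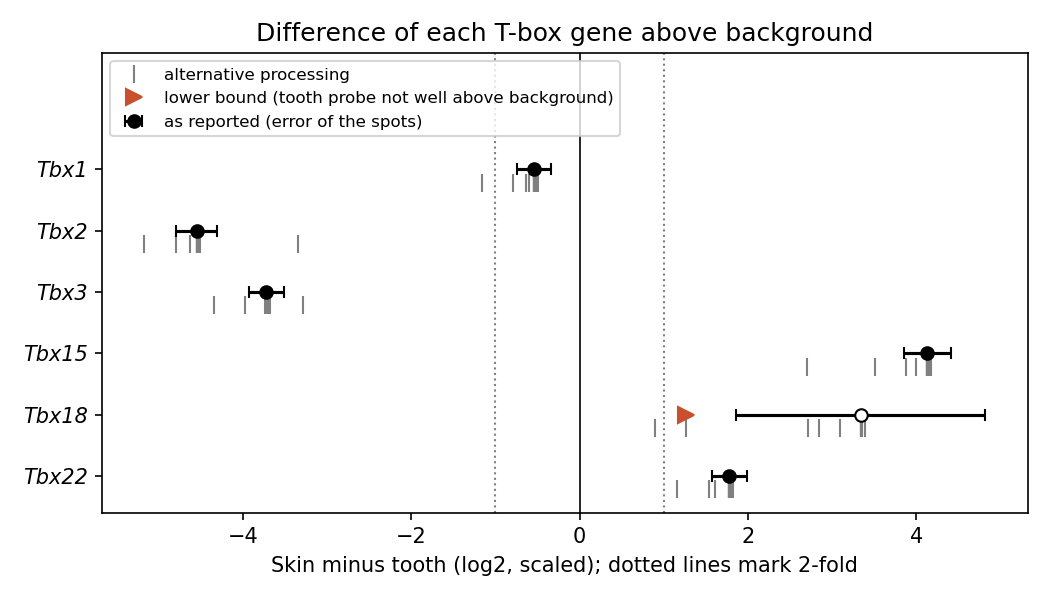
Skin minus tooth (log2, scaled) of the 6 T-box genes above background, with the error of the spots (black) and the values under the alternative processing settings (grey ticks). Dotted lines mark 2-fold. The open point of Tbx18 used a tooth value below background, and the orange triangle marks its lower bound of 2.40-fold. Each gene kept its side of 0 under every setting drawn.

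**Figure D4:**
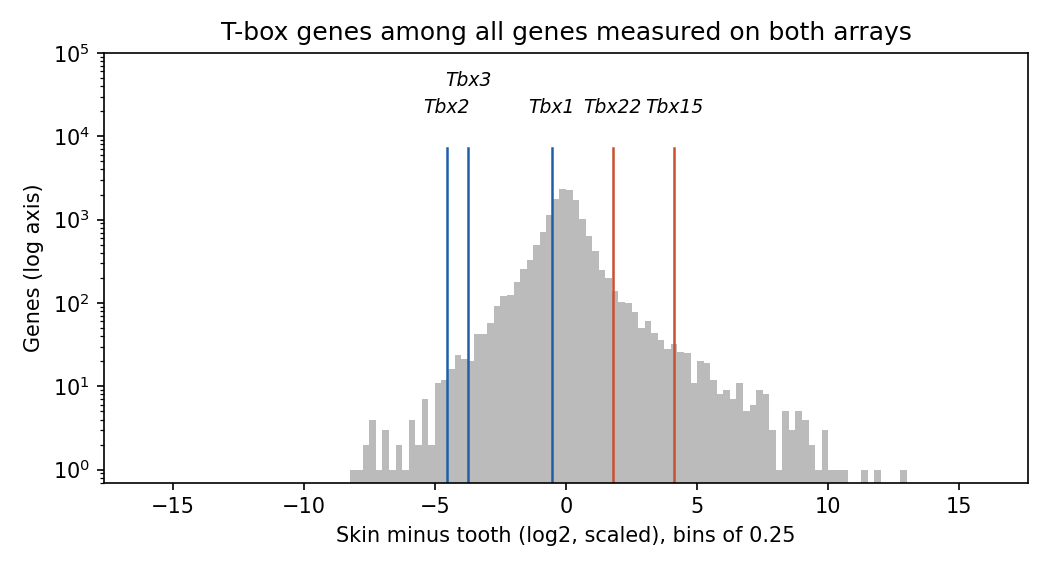
Distribution of skin minus tooth (log2, scaled) over the 15271 genes measured on both arrays, in bins of 0.25 with a log count axis. The lines mark the 5 T-box genes measured on both, with Tbx2 (-4.55) and Tbx3 (-3.72) toward the tooth end, Tbx15 (4.13) toward the skin end, and Tbx1 (-0.54) and Tbx22 (1.78) nearer the centre.

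The remaining T-box family genes differed little between the arrays. Of 8 on the array, 5 were above background on at least 1 array, and 0 of these 5 passed 2-fold in either direction. Their median difference was 0.29 (log2). Tbx21, the T-bet gene of lymphocytes, had a processed signal of 37.6 on tooth and 41.6 on skin, a scaled difference of 0.78. Tbx10 had 184 on tooth and 145 on skin, which after scaling was 0.29. Tbx6, the presomitic mesoderm gene, had 156 and 119, or 0.24 scaled. Mga, which joins a T-box to the Max-binding network, had 152 and 103, or 0.08 scaled. T, Tbr1 and Tbx19 lacked the call in both tissues.

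Members that are neighbours in the genome had different calls. Tbx2 and Tbx4 lie on chromosome 11 with their probes 74.1 kb apart, and Tbx2 was measured on both arrays while Tbx4 lacked the call on both. Tbx3 and Tbx5 lie on chromosome 5 with their probes 199.6 kb apart, and they stood in the same relation. Within 150 kb of Tbx2, the 5 other probes measured on both arrays ranged from -0.20 to 1.31 (log2), against -4.55 for Tbx2 itself. The 1 such probe near Tbx15, of the mitochondrial tryptophanyl-tRNA synthetase gene Wars2, was at -0.05, against 4.13 for Tbx15.

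RefSeq promoters of build GRCm38.p6 were at hand for 5 of the 9 genes, with 8 start sites in all. T-box proteins bind the half-site AGGTGT, which was searched on both strands in the 250 bases before each start. It was in 1 of the 8 and in 11.8% of all 32851 promoters. The longer form AGGTGTGA was in 0 of the 8 and in 1.12% of all. The match lay before the upstream start of Tbx1, beginning 76 bases before it, and is in capitals below. The Tbx18 window, of the gene seen on the skin array alone, is shown for comparison and held no match. It contained 15 CpG dinucleotides and the Tbx1 window 10, against a median of 6.
Tbx1, chr16:18590672-18590921, minus strand: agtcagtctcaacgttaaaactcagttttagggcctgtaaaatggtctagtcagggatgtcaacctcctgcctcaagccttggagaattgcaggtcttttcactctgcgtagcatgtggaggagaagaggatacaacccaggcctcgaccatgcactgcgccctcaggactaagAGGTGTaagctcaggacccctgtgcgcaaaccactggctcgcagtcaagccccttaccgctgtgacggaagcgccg
Tbx18, chr9:87731261-87731510, minus strand: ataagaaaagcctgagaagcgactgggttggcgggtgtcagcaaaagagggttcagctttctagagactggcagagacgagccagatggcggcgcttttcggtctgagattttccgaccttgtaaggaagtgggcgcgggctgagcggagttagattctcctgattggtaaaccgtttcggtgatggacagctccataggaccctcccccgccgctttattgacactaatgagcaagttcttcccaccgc
A match is a description of letters and not of binding.

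Genes that act beside the T-box factors in the tooth lay toward tooth. Of 12, all were above background on 1 array or both, 8 were at least 2-fold higher on tooth, 0 were at least 2-fold higher on skin, and the median was -3.23 (log2). Lhx6, named after its values were seen, was counted as within 2-fold at 0.09, although another of its probes was at -4.50. Pitx1, a homeobox gene of the jaw and hindlimb, had a signal of 16770 on tooth and 63.0 on skin, a difference of -7.42. The dental mesenchyme genes Lhx8 and Barx1 were not well above background on skin and were at least 49.6-fold and at least 16.9-fold higher on tooth.

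Patterning genes of skin and limb were divided. Of 10 tested, 1 was at least 2-fold higher on skin and 4 on tooth, with a median of -0.04 (log2). The agouti gene, listed as a in RefSeq, encodes the signal that yields yellow pigment, and it had a signal of 16.3 on tooth and 264 on skin, at least 21.9-fold higher on skin. Hand2 was at least 27.9-fold higher on tooth, and Wnt7a was at -2.79. The gene of the list that was higher on skin, agouti, was on the same side as Tbx15.

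The co-repressors bound by T-box proteins were similar on the 2 arrays. All 8 were measured on both and 0 passed 2-fold, with a median of -0.10 (log2). Tle2 had the largest of these differences at -0.72, although another of its probes was at -3.21. Of the 4 cell cycle inhibitors that Tbx2 and Tbx3 are known to repress, 1 was at least 2-fold higher on skin and 1 on tooth. Cdkn2b, the p15 inhibitor, had a signal of 145 on tooth and 444 on skin, at 2.24. Cdkn1a, the p21 inhibitor, was at -0.39. Cdkn2a, counted as higher on tooth, had a signal of 43.3 there and was not well above background on skin, which bounds it at only 1.34-fold.

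The list of retinoid enzymes and of targets linked to Tbx1, forkhead genes among them, had 8 genes tested. Of these, 6 were counted as at least 2-fold higher on tooth and 2 on skin, with a median of -2.71 (log2). The count used dim values as listed, and 1 of the 6, Cyp26c1, named after its values were seen, is bounded at only 1.51-fold. The retinoic acid hydroxylase Cyp26a1 had a signal of 9592 on tooth and was not well above background on skin, at least 298-fold higher on tooth. Its relative Cyp26b1 was at 3.83, on the opposite side, with 677 on tooth and 6210 on skin. Aldh1a2, a retinoic acid synthesis enzyme, was at -3.30 and the forkhead gene Foxc1 at 3.45. Of the 7 heart partners and targets, 4 were tested, and the cardiac regulators Nkx2-5, Gata4 and Hand1 were below the call on both arrays, as Tbx20 and Tbx5 were. Gata6 was at 2.99, Gja1 at -1.33 and Gja5 at -1.70, and the other 2 probes of Gja5 were within 2-fold. The tooth signal of Gata6, 26.0, lay near the lowest one called well above background.

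**Figure D5:**
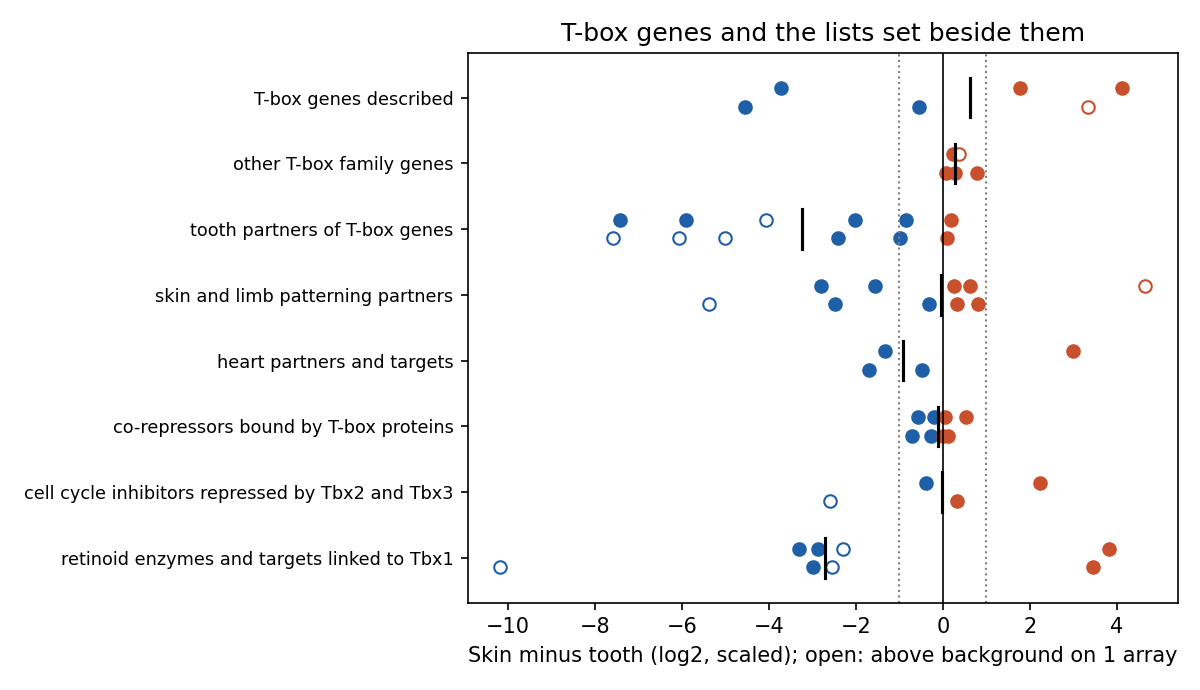
Skin minus tooth (log2, scaled) of each gene above background on 1 array or both, for the T-box genes described and the 7 lists set beside them. Open points were well above background on 1 array alone and their place rests on a dim value. Vertical bars mark list medians (0.62 for the T-box genes described, -3.23 for the tooth partners, -0.10 for the co-repressors), and dotted lines mark 2-fold.

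Markers of the cells in which Tbx15 and Tbx18 are known did not all lie on the side of those genes. The summed signal of a list is given in multiples of each array's 75th percentile and is set mainly by its brightest probes, so the median difference (log2, skin minus tooth) stands beside it. Of the 6 dermal papilla markers, 3 were at least 2-fold higher on skin and 2 on tooth, with a median of 0.66 and sums of 72.3 on tooth and 13.2 on skin. Corin was not well above background on tooth, while Wif1 and Crabp1 were at -3.41 and -3.48. Of the 5 dermal fibroblast markers, 3 were higher on skin and 1 on tooth, with a median of 4.06 and sums of 233 and 92.3. Dpt was not well above background on tooth, while Lum was at -2.97. For both lists the median and the sums thus lay on opposite sides. Of the 7 pericyte and vascular smooth muscle markers, 1 was higher on skin and 4 on tooth, with a median of -2.31 and sums of 16.3 and 16.6. Skeletal muscle and fat markers lay toward skin, 5 of 5 tested and 5 of 6, with medians of 3.35 and 3.84 and sums of 8.27 and 80.6 for muscle and of 1.80 and 45.9 for fat. The summed signal of the enamel epithelium markers was 2163 on tooth and 0.269 on skin, and that of the 5 odontoblast and bone markers 343 and 0.652. The epidermis markers summed to 6.0 and 3760, the 4 hair follicle markers to 2.18 and 759. Of the 3 oral mucosa markers, 1 was higher on skin and 2 were counted as higher on tooth, with a median of -1.66 and sums of 12 and 59.9. The marker higher on skin, Krt13, was at 2.36, although another of its probes was at 0.44. Krt76, 1 of the 2 counted as higher on tooth, was near the limit of the call on tooth and below it on skin, so that no fold can be given. Of 4 cartilage markers tested, 2 were higher on tooth, with a median of -0.48 and sums of 7.0 and 4.67. Of 6 heart muscle markers, 3 lacked the call in both tissues. Of the other 3, 1 was at least 2-fold higher on skin, 0 were on tooth, and 2 were within 2-fold. The median of these 3 was -0.49, and the sums were 0.521 and 1.51. The part of these tissue contents in the T-box differences was not tested.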

How the data were processed

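Total RNA of tooth and skin was labelled with Cy3 and hybridised to Agilent whole-genome mouse arrays. Per the file headers, the deposited spot intensity was background-subtracted and detrended by Feature Extraction (version 10.7.3.1), which set very dim values to surrogates. The authors used GeneSpring with a filter on low signals and a percentile shift, and the table they deposited holds, as a ratio, each intensity divided by a single factor for its array, 430.7 in tooth and 274.5 in skin. Here outlier spots were dropped, spots of a probe were averaged as log2 values, and the 75th percentile over the 55675 non-control probes was subtracted. The probe with the highest mean stood for a gene, which entered if more than 50% of that probe's spots had the well-above-background call on 1 array or both. Counts and medians used dim values as listed, while a fold that rests on a dim value is given as a bound only, as at least N-fold. Bright probes with at least 8 spots had a median SD among spots of 0.08 on tooth and 0.09 on skin (log2). The number of arrays limits the precision. Names came from a RefSeq table (GRCm38.p6), matching all 12 member probes. Spike-in scaling used 8 spike-in RNAs. All 9 T-box genes are named with every probe, and at most 4 genes of each list, those with the largest differences measured on both arrays and the largest bounds. A few genes that this rule would name are not reported here. The members and lists were chosen with earlier results of these data known. Further settings comprised other scalings, background correction by normexp with an offset of 50 (limma 3.58.1 in R 4.3.3), probe rules, filters and thresholds. The scripts were tested on simulated data with known differences.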

Additional observations from a re-analysis of the deposited data

Results flagged for a closer look

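Probes for long non-coding regions were outside the comparison of named genes. Within 150 kb of a T-box probe there were 19 of them, and 5 were well above background on both arrays. With each array taken alone, 56.7% of all non-control probes had that call on tooth and 52.5% on skin. On both arrays at once, 26663 of the 53469 probes with an alternating A and G run of at most 5 bases had it. Of the negative-control spots, 0 of 308 had it on tooth and 1 of 308 on skin. The 5 were looked at again because they carried signal that no comparison used. Between Tbx3 and Tbx5 on chromosome 5, 1 probe had a signal of 222 on tooth and 110 on skin, a scaled difference of -0.38 (log2, skin minus tooth), and another had 59.7 and 43.8, a difference of 0.19. Near Tbx20 on chromosome 9, 1 probe had 116 on tooth and 145 on skin, a difference of 0.94, and another had 46.3 and 59.6, a difference of 1.0. The remaining probe there had 24.2 and 48.9, a difference of 1.65, and overlapped the first of these while being named for the opposite strand. All 3 lay within 150 kb of a Tbx20 probe, and no probe of Tbx20 was well above background. Groups of 1 sample allowed no check for outlying samples.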

How the results depend on the processing

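Of 14 alternative settings planned, 12 gave a value for single genes and 2 changed the fold threshold. Each of the 6 genes kept its direction in every setting that gave it a value. The settings on probe rules could not move these values, since each of the 6 genes had only 1 probe with the well-above-background call. The second Tbx22 probe lacked the call and gave the value of Tbx22 in no setting. Tbx2 (-5.17 to -3.35), Tbx3 (-4.34 to -3.29), Tbx15 (2.70 to 4.17) and Tbx22 (1.16 to 1.83) stayed past 2-fold, Tbx1 (-1.16 to -0.49) passed it under spike-in scaling alone, and Tbx18 (0.90 to 3.39) missed it under normexp alone. The median over the T-box genes was not stable. It was 0.37 with the array median, 0.13 with normexp, 0.36 with dim values raised to the lowest signal well above background, and 1.75 both with no filter and with the lenient detection call, since 3 dim genes then entered. It changed sign to -0.0017 under spike-in scaling, to -0.54 with genes measured on both arrays only, and to -0.54 without the Tbx22 probe that ends in a repeat, a setting chosen after seeing the data. As scaled here, the median lay midway between Tbx1 and Tbx22. Scaling on the spike-ins or the array median shifted every gene by the same amount, -0.62 or -0.25, and the median with them. With normexp and with raised dim values, Tbx18 (0.90 and 1.27) fell below Tbx22 (1.61 and 1.78) and took its place in the median. The count higher on skin was 5 of 9 with no filter and 5 of 9 with the lenient call, against 3676 of 24323 and 3675 of 21193 over all genes, and the calls so added, Tbx4 and Tbx5, rest on values too dim for a fold. Over all genes, normexp called 1743 higher on skin and 1672 on tooth, against 2466 and 2691. Leaving out a replicate was not possible with 1 array per tissue. No paired analysis was possible because the result comes from no test and each tissue had 1 sample.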

Other observations

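Near Tbx3, the uncharacterised gene AW549542 had a signal of 131 on tooth and 17.5 on skin, where it was not well above background. The 2 probes near Tbx3 that were measured on both arrays were at -0.38 and 0.19, against -3.72 for Tbx3. Within 150 kb of Tbx1, 5 of 9 probes were measured on both arrays and ranged from -1.26, for the mitochondrial thioredoxin reductase gene Txnrd2, to 1.03 (log2, skin minus tooth), for a probe of Gnb1l, of which a second probe was at 0.32. Near Tbx22, all 3 neighbouring probes were measured on both arrays and lay between -0.62 and 0.43, against 1.78 for the bright Tbx22 probe. These genes were named after their values were seen.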
